A study of Homo sapiens with 6 samples.

Results

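The genes described here build the lipid-linked glycan that the oligosaccharyltransferase attaches to new proteins, together with the genes that make its sugar precursors. They were 29 genes named for their role in this pathway, and a probe set was taken as a member where the platform annotation gave it exactly 1 of these symbols. This rule found 26 genes with 1 probe set each, among 23752 genes and 25088 probe sets in all. The annotation used here names no probe set with SRD5A3, PGM3 or PMM2, so these 3 genes are not analysed here. That does not mean that the arrays lack probes for them, since 1336 probe sets of the table are unnamed here.

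SW480 is an established cell line from a human colorectal adenocarcinoma. Expression was measured on 6 Affymetrix arrays of these cells, 3 after transient transfection with the pTarget plasmid carrying TUSC3 and 3 after transfection with the same plasmid without an insert (empty vector, EV). Both groups were grown in DMEM with fetal calf serum and received plasmid with the reagent Turbofect. Treatment with plasmid and reagent was therefore common to both groups, but equal uptake was not shown. The labels give no time after transfection, no share of cells that took up plasmid, and no statement that the replicates were separate cultures, so the p-values reflect the spread among these arrays, part or all of which may be technical.

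TUSC3 and its paralogue MAGT1 are alternative subunits of the oligosaccharyltransferase of the endoplasmic reticulum. The glycan that this complex transfers is assembled on dolichol, a long polyisoprenoid lipid, by enzymes that add one sugar at a time. Assembly begins on the cytosolic face of the membrane with sugars from UDP-GlcNAc and GDP-mannose, and after the lipid-linked intermediate is turned to the lumen it continues with sugars carried on dolichol phosphate. Inherited defects in many of these genes cause congenital disorders of glycosylation. The comparison of TUSC3 with EV asked which transcripts differ when a subunit of the complex that uses this glycan is added to the cells.

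Levels are given on the log2 scale of RMA, and a difference is the TUSC3 mean minus the EV mean on that scale, fitted with limma over all probe sets with Benjamini-Hochberg adjustment. TUSC3 itself had a level of 13.11 ± 0.022 (SD, n = 3) after transfection with its plasmid and 4.51 ± 0.16 (SD, n = 3) with the empty vector, a difference in array signal of 8.60 (limma, adjusted p = 9.51e-08). Whether the EV signal of TUSC3 lay above background was not tested, so 8.60 does not measure the change in transcript amount. Of the 12 colorectal epithelial markers examined, EPCAM and KRT19 had EV means of 12.44 and 12.49, whereas the intestinal cadherin gene CDH17, at 3.66, and the homeobox gene CDX1, at 5.09, lay below the median of 5.50 over all probe sets of an array. EV means of the measured markers of other cell types ran from 2.55 for PTPRC to 7.24 for LYZ among 5 leukocyte markers, from 2.66 for DCN to 6.51 for COL1A1 among 6 fibroblast markers, and from 3.08 for PECAM1 to 4.97 for VWF among 5 endothelial markers. LYZ and COL1A1 were the members of these lists above the array median. None of the 28 measured markers of these 4 cell types had an unadjusted p under the threshold of 0.05, and the summed levels of each marker list overlapped between the groups.

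None of the 26 glycan assembly genes differed between TUSC3 and EV past an adjusted p of 0.05, where 0.00399% of all probe sets (1, that of TUSC3) did. The smallest adjusted p among them was 0.732 (limma). NUS1, which encodes the partner of DHDDS in dolichol chain synthesis, had the largest difference, -0.41. It was followed by the glucosyltransferase paralogue ALG10B at -0.33, the phosphomannomutase gene PMM1 at 0.29 and the dolichyl pyrophosphate phosphatase gene DOLPP1 at 0.14. The other 22 genes differed by -0.08 to 0.07. Of the 26 genes 13 were higher and 13 lower, and their median difference was 0.0015, against 0.00075 over all probe sets.

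Before adjustment 2 genes, NUS1 and ALG10B, had a p under 0.05, which is 7.69% of the 26 beside 6.66% of all probe sets. The 3 TUSC3 arrays lay all above or all below the 3 EV arrays for 4 genes, NUS1, ALG10B, PMM1 and DOLPP1, which is 15.4% beside 12.2% of all probe sets. For 23 of the 26 genes, 88.5%, the 95% interval of the difference left out every change as large as 1.5-fold in array signal, in either direction, beside 90.7% of all probe sets. The exceptions were NUS1, ALG10B and PMM1. These shares lie near the background of the whole array.

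**Figure D1:**
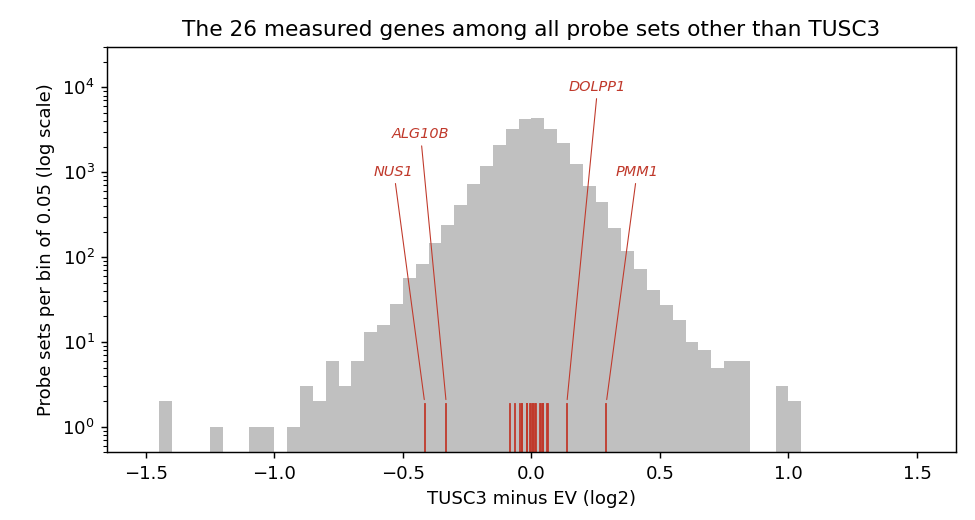
Histogram of the TUSC3 minus EV difference (x axis, log2) of every probe set other than TUSC3, in bins of 0.05, with the number of probe sets on a log y axis. The red ticks mark the 26 measured genes: 22 lie between -0.08 and 0.07, and NUS1 (-0.41), ALG10B (-0.33), DOLPP1 (0.14) and PMM1 (0.29) lie outside that range.

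The EV means of the 26 genes ran from 5.49 for ALG10B to 11.61 for DPM1, with a median of 8.48, while the median EV mean over all probe sets was 5.49. Probes differ in how strongly they bind their target, so these levels describe array signal, and the order of genes is not an order of transcript amounts. No detection call was used. The pooled SD between arrays of a group had a median of 0.092 over the 26 genes and of 0.12 over all probe sets. It was smallest for ALG5, at 0.031, DHDDS, at 0.033, and GFPT1, at 0.034. ALG10B, ALG10 and PMM1 were the most variable, at 0.20, 0.20 and 0.19. The mean level over the 26 genes was 8.57, 8.52 and 8.57 in TUSC3 replicates 1 to 3 and 8.61, 8.54 and 8.54 in EV replicates 1 to 3, so the groups overlapped in it.

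**Figure D2:**
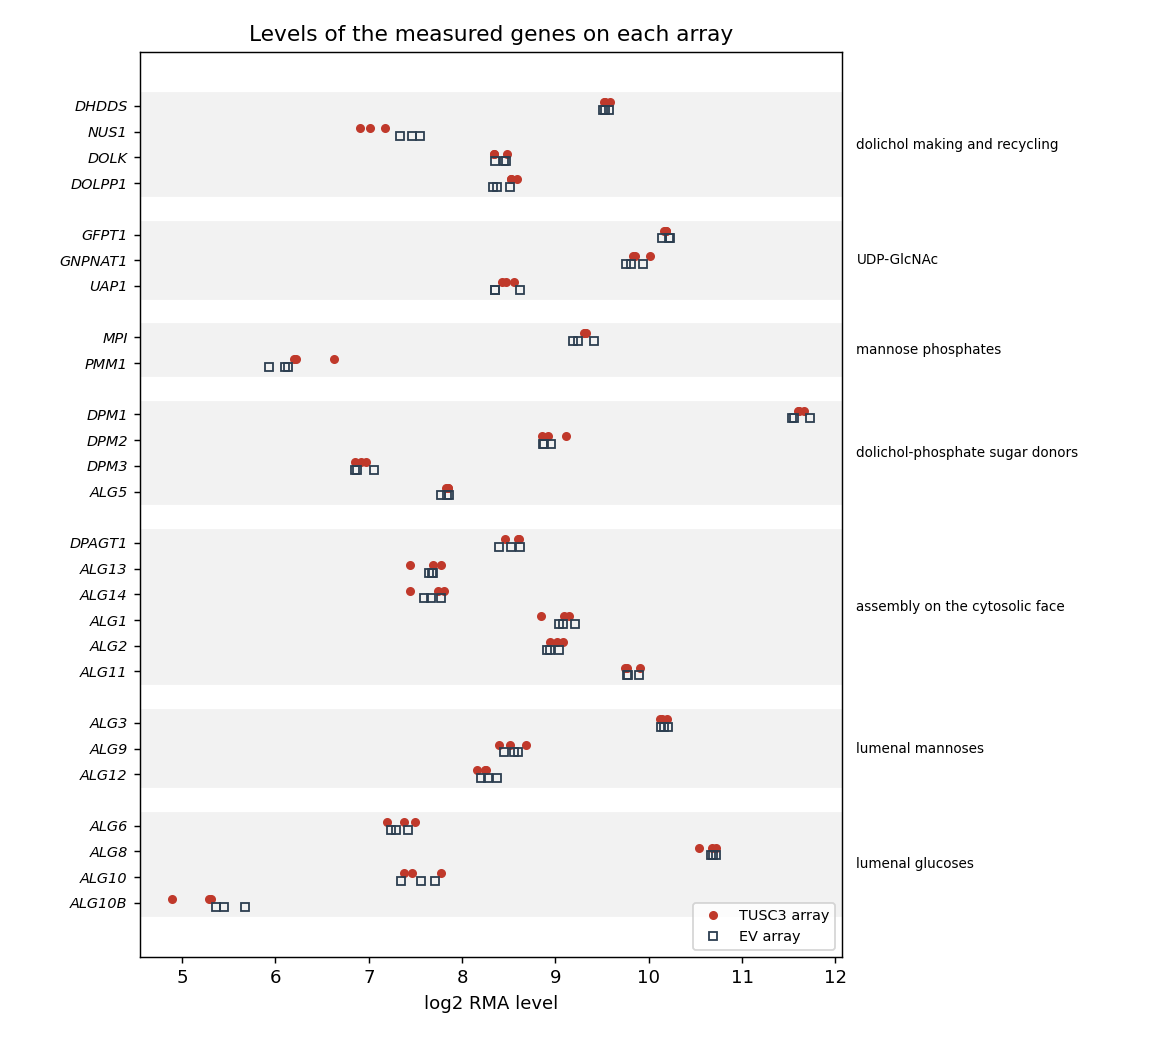
Log2 RMA level (x axis) of each of the 26 measured genes on each array, ordered by pathway step (shaded blocks, named at the right); filled red circles are the 3 TUSC3 arrays and open squares the 3 EV arrays. The symbols of the 2 groups intermix for all genes except NUS1, ALG10B, PMM1 and DOLPP1.

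Dolichol is made by a cis-prenyltransferase of 2 subunits, the catalytic DHDDS and its partner NUS1, also known as the Nogo-B receptor. NUS1 read 6.91, 7.17 and 7.02 in TUSC3 replicates 1 to 3 and 7.55, 7.33 and 7.46 in EV replicates 1 to 3. The highest TUSC3 array, replicate 2, lay below the lowest EV array, also replicate 2. The difference of -0.41 (SE 0.095, 95% interval -0.64 to -0.19), a signal ratio of 0.750, did not pass (limma, adjusted p = 0.732). DHDDS read 9.59, 9.53 and 9.53 in the TUSC3 arrays and 9.53, 9.51 and 9.57 in the EV arrays, and the groups overlapped throughout. Its difference was 0.0077 with an interval of -0.14 to 0.16.

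Pseudogenes were searched for only by the gene's own symbol followed by P and a number, so copies named in another way would be missed. By this pattern RefSeq names 4 NUS1 pseudogenes, and among the other measured genes 2 of GNPNAT1 and 1 of ALG3. None of these copies has a probe set of its own named here. The place of the probes is not stated in the labels or the files, and signal from such copies was not tested.

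DOLK, the kinase that phosphorylates dolichol so that it can accept sugars, had an EV mean of 8.42 ± 0.062 (SD, n = 3) and differed by -0.037 (interval -0.21 to 0.14). DOLPP1 recycles the dolichyl pyrophosphate that is left when the glycan has been transferred. It read 8.52, 8.52 and 8.59 in the TUSC3 arrays and 8.51, 8.33 and 8.38 in the EV arrays, and it is given by array because its groups did not overlap, a choice made after the values were seen. EV replicate 1 lay just below the lowest TUSC3 array, and the difference of 0.14 had an interval of -0.036 to 0.31 (limma, adjusted p = 0.778).

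Promoter windows of this arm are shown for NUS1, DHDDS and DOLK. No rule set beforehand chose them, and each holds a match to a sequence searched for below. Of these 3, NUS1 alone had groups that did not overlap, as 12.2% of all probe sets did. DOLPP1, the remaining measured gene of the arm, also had groups that did not overlap, and its window is not shown. Promoter windows of RefSeq genes on GRCh38.p14 were matched to 25 of the 26 genes, and the 250 bases before the annotated start were searched on both strands. The E-box CACGTG, a site that MYC and USF proteins can bind, was present before NUS1, DHDDS and DOLK. Among the windows of all genes 6.34% of 35116 held it, and among the 36 windows of the 25 genes 5 did, those of ALG1 and ALG3 being the others. The sequence TGACGTG, the core of a site bound by XBP1 and ATF6, was found before DHDDS and UAP1 and in 1.68% of all windows. Neither sequence was found before DOLPP1. A match describes letters only and is not evidence of binding. The windows of the 3 dolichol genes are shown 5′ to 3′ on the gene's strand, with matches to CACGTG and TGACGTG in capitals. They lie at chr6:117675219-117675468 (plus strand), chr1:26432071-26432320 (plus strand) and chr9:128947604-128947853 (minus strand).
NUS1: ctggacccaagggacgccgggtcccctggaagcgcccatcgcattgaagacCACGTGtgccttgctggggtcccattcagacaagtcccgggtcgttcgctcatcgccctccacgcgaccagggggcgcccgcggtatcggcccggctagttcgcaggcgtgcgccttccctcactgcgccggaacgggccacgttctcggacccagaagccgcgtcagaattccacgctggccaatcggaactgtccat
DHDDS: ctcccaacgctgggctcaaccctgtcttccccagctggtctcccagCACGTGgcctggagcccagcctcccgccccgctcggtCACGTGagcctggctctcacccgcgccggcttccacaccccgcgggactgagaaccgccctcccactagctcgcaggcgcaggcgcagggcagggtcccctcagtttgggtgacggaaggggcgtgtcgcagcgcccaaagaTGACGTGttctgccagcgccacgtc
DOLK: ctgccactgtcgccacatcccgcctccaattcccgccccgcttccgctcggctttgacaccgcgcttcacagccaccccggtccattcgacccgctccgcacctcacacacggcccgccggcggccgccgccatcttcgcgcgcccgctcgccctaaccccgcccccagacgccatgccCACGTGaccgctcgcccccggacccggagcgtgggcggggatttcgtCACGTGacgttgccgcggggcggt
The differences of these 3 genes were -0.41 for NUS1, 0.0077 for DHDDS and -0.037 for DOLK, and a link between the E-box and these differences was not tested.

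**Figure D3:**
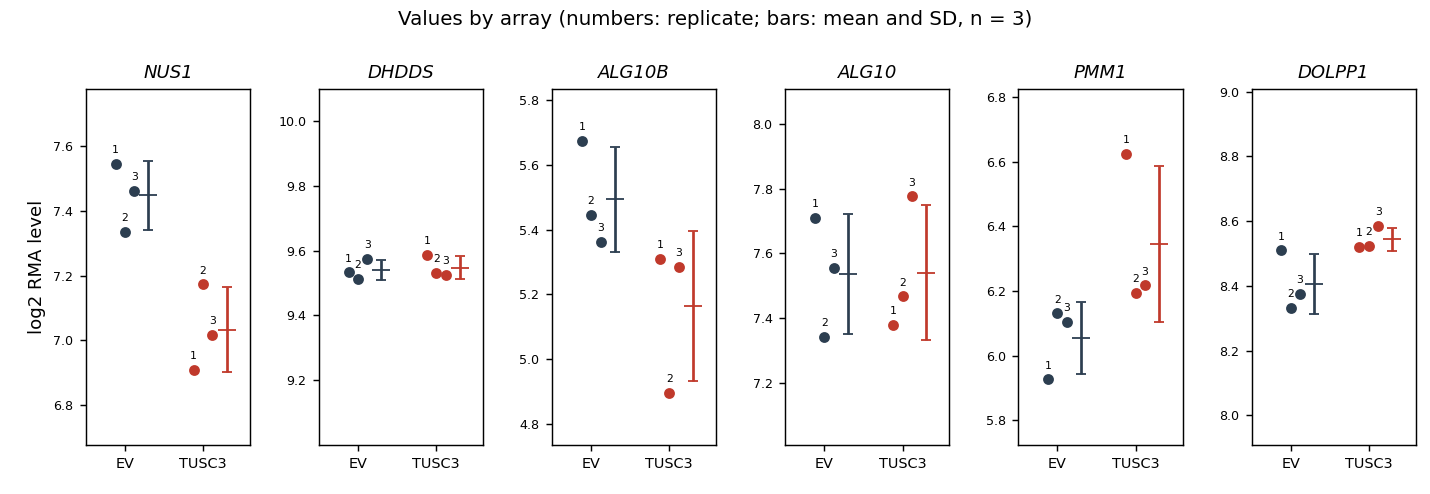
Log2 RMA level (y axis, each panel spanning 1.1 units) of 6 genes on the 3 EV and 3 TUSC3 arrays; points are arrays numbered by replicate, and bars give the mean and SD (n = 3). NUS1 and ALG10B lay lower and PMM1 and DOLPP1 higher in every TUSC3 array, while the partner DHDDS and the paralogue ALG10 overlapped between groups.

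UDP-GlcNAc, the donor of the glycan's core sugars, comes from the hexosamine pathway. GFPT1, its rate-limiting amidotransferase, had an EV mean of 10.20 ± 0.047 (SD, n = 3) and a difference of -0.018 (interval -0.17 to 0.13). GNPNAT1, which acetylates glucosamine phosphate, had an EV mean of 9.84 ± 0.091 (SD, n = 3) and a difference of 0.060 (interval -0.14 to 0.26). UAP1, the pyrophosphorylase that makes UDP-GlcNAc itself, had an EV mean of 8.44 ± 0.15 (SD, n = 3) and a difference of 0.045 (interval -0.18 to 0.27). The groups overlapped for all 3 genes, and no interval of this arm reached 1.5-fold.

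Mannose enters through MPI, which converts fructose phosphate to mannose phosphate, and through phosphomannomutase. MPI had an EV mean of 9.28 ± 0.11 (SD, n = 3) and a difference of 0.035 (interval -0.15 to 0.22). PMM1, the paralogue of the main phosphomannomutase PMM2, read 6.62, 6.20 and 6.22 in TUSC3 replicates 1 to 3 and 5.93, 6.13 and 6.11 in EV replicates 1 to 3. TUSC3 replicate 1 stood well above the other arrays, and the remaining TUSC3 arrays lay just above the highest EV array. The difference was 0.29 with an interval of -0.016 to 0.60 (limma, adjusted p = 0.760), and 0.15 without TUSC3 replicate 1.

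Lumenal steps draw on dolichol-phosphate-mannose and dolichol-phosphate-glucose. The mannose donor is made by DPM1, the catalytic subunit, which is held at the membrane by DPM3, with DPM2 as a further subunit. DPM1 had an EV mean of 11.61 ± 0.11 (SD, n = 3) and a difference of 0.016 (interval -0.17 to 0.20). DPM2, at an EV mean of 8.90, differed by 0.066 (interval -0.13 to 0.27), and DPM3, at 6.93, differed by -0.016 (interval -0.21 to 0.18). ALG5, which makes dolichol-phosphate-glucose, had an EV mean of 7.83 ± 0.043 (SD, n = 3) and a difference of 0.016 (interval -0.13 to 0.16). Arrays of the 2 groups overlapped for each of these 4 genes.

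On the cytosolic face DPAGT1, the target of tunicamycin, places GlcNAc phosphate on dolichol phosphate. It had an EV mean of 8.51 ± 0.11 (SD, n = 3) and differed by 0.043 (interval -0.16 to 0.25). The next GlcNAc is added by ALG13, the catalytic subunit, and ALG14, its membrane anchor. ALG13 read 7.44, 7.69 and 7.77 in the TUSC3 arrays and 7.69, 7.65 and 7.68 in the EV arrays, a difference of -0.038. ALG14 read 7.80, 7.44 and 7.74 in the TUSC3 arrays and 7.78, 7.60 and 7.67 in the EV arrays, a difference of -0.017. The TUSC3 arrays spread more widely than the EV arrays for both partners, and the low array was replicate 1 for ALG13 and replicate 2 for ALG14. The mannosyltransferase genes of this face followed with ALG1, which adds the first mannose, at an EV mean of 9.11 and a difference of -0.084 (interval -0.32 to 0.15). ALG2, which adds the branching mannoses, had 8.97 and 0.044 (interval -0.13 to 0.22). ALG11, which completes the cytosolic intermediate, had 9.81 and -0.0025 (interval -0.19 to 0.18).

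In the lumen ALG3, ALG9 and ALG12 add mannose from dolichol-phosphate-mannose. ALG3 had an EV mean of 10.17 ± 0.035 (SD, n = 3) and a difference of -0.018 (interval -0.17 to 0.13). ALG9 had an EV mean of 8.53 ± 0.072 (SD, n = 3) and a difference of -0.0037 (interval -0.22 to 0.21). ALG12 had an EV mean of 8.29 ± 0.085 (SD, n = 3) and a difference of -0.064 (interval -0.24 to 0.11). All 3 point estimates lay below 0 and all 3 intervals included it.

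ALG12 held the single match among the 36 windows to the endoplasmic reticulum stress element, CCAAT and CCACG separated by 9 bases of any kind. This site of ATF6 and XBP1 was present in 0.0740% of all windows. The related element of ATTGG and CCACG separated by 1 base, and the cyclic AMP element TGACGTCA, had 0 matches in the 36 windows, beside 0.0513% and 1.65% of all windows. CCAAT by itself, which the longer element contains, was in 12 of the 36 windows and 32.0% of all. The ALG12 window, at chr22:49918439-49918688 on GRCh38.p14 (minus strand), is shown 5′ to 3′ with the element in capitals, for the gene whose difference was -0.064.
ALG12: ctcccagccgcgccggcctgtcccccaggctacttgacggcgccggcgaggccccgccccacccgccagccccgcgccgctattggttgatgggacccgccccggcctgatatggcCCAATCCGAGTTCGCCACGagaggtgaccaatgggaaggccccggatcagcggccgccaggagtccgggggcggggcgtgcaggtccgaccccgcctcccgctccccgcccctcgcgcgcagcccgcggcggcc

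The glycan is completed with glucose from dolichol-phosphate-glucose by ALG6, ALG8 and ALG10, and the terminal glucose is a feature that the oligosaccharyltransferase recognises. ALG6 had an EV mean of 7.32 ± 0.094 (SD, n = 3) and a difference of 0.039 (interval -0.19 to 0.27). ALG8 had an EV mean of 10.69 ± 0.025 (SD, n = 3) and a difference of -0.043 (interval -0.22 to 0.13).

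ALG10 and ALG10B are close paralogues of the last glucosyltransferase. ALG10B read 5.31, 4.90 and 5.29 in TUSC3 replicates 1 to 3 and 5.68, 5.45 and 5.36 in EV replicates 1 to 3. Its highest TUSC3 array lay just below its lowest EV array, and TUSC3 replicate 2 stood apart at the low end. The difference of -0.33 (SE 0.14, interval -0.66 to -0.0070) did not pass (limma, adjusted p = 0.746), and it was -0.20 without TUSC3 replicate 2. ALG10 read 7.38, 7.47 and 7.78 in the TUSC3 arrays and 7.71, 7.34 and 7.55 in the EV arrays, with a difference of 0.0055 and an interval of -0.31 to 0.33. The paralogues' probes may share target sequence, so their signals are uncertain as separate measures, and this was not tested.

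**Figure D4:**
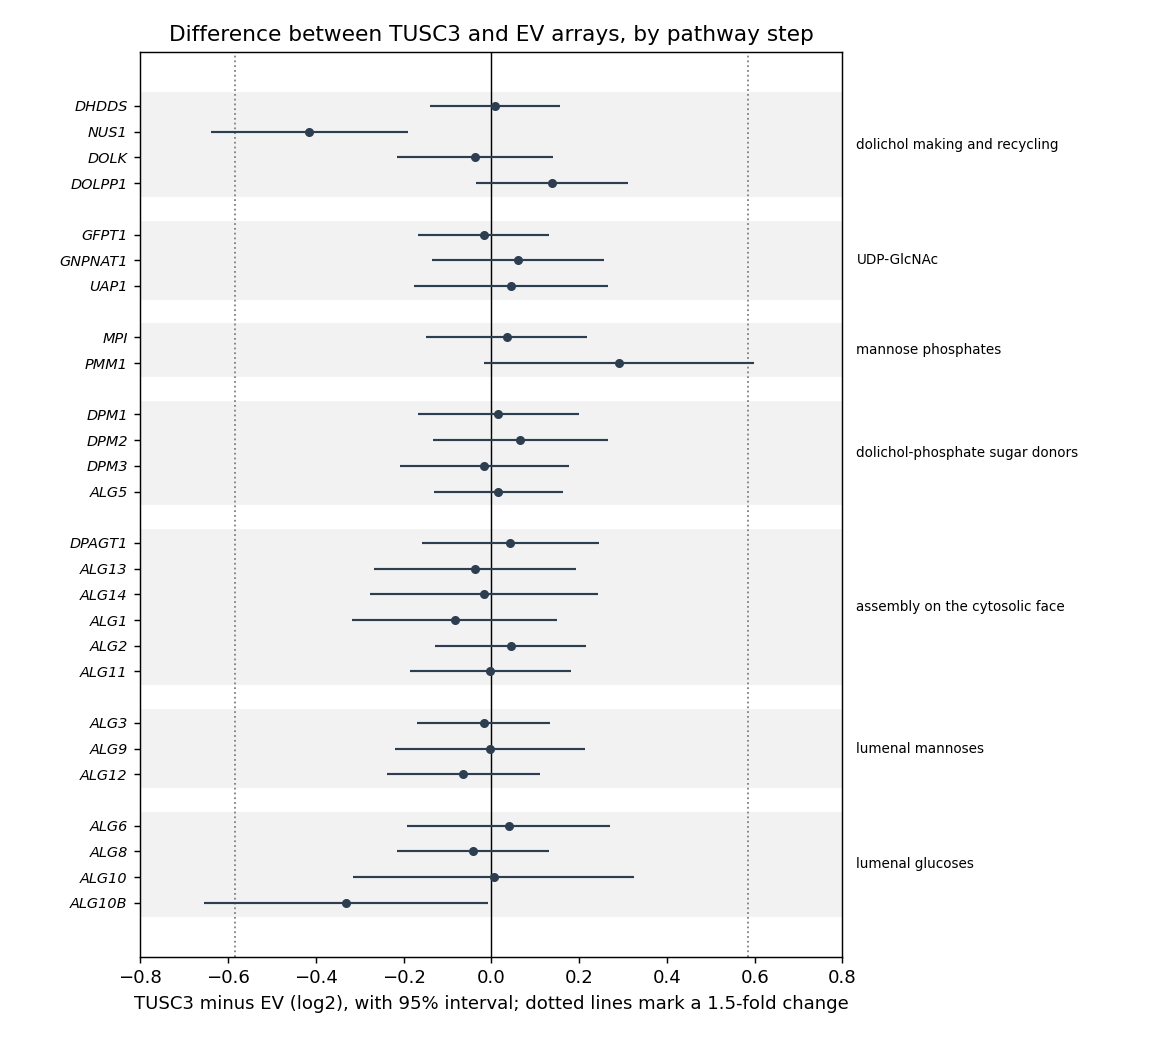
TUSC3 minus EV difference (x axis, log2) of the 26 measured genes by pathway step; points are the limma estimates, bars the 95% intervals, and dotted lines a 1.5-fold change. Intervals of NUS1 and ALG10B lie below 0, that of PMM1 crosses the upper dotted line, and the other 23 include 0 and lie between the dotted lines.

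Genes that feed this pathway or share its products were taken as a separate list of 30, of which 27 were measured. None of the 27 passed, and 1 had an unadjusted p under 0.05, which is 3.70% beside 6.66% of all probe sets. TUSC3 and EV arrays were fully separated for 3 of the 27, PIGB, ACAT2 and GMPPA, which is 11.1% beside 12.2% of all probe sets. The median difference of the 27 was 0.0100, with 15 higher and 12 lower, and for all 27 the interval excluded a change of 1.5-fold, beside 90.7% of all probe sets. ACAT2, which makes acetoacetyl-CoA, and GMPPA, a regulatory partner in GDP-mannose synthesis, differed by 0.070 and 0.063 and were named after their values were seen. Upstream, 7 genes of the mevalonate pathway that leads to farnesyl diphosphate, the starter of the dolichol chain, differed by -0.16 to 0.070. FDPS, which makes that starter, had the lowest of these differences, -0.16 (interval -0.45 to 0.13), and was also named after its value was seen. Beside the sugar precursor genes, 9 other hexose phosphate and nucleotide sugar enzymes differed by -0.048 to 0.097.

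Downstream, MPDU1, which is needed for the use of dolichol-phosphate sugars, differed by 0.13 (interval -0.062 to 0.33). Among 8 genes of other pathways that spend dolichol-phosphate-mannose, PIGB, a mannosyltransferase of GPI anchor synthesis, read 6.79, 6.73 and 6.62 in the TUSC3 arrays and 7.14, 6.85 and 6.90 in the EV arrays. Every TUSC3 array lay below every EV array, and the difference of -0.25 had an interval of -0.48 to -0.020 (limma, adjusted p = 0.746). STT3A and STT3B, the catalytic subunits that receive the finished glycan, differed by 0.0100 and -0.0091.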

How the data were processed

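RMA was the tool named in the submitters' processing notes (no version stated). The deposited values are log2 levels, 1 per probe set and array, in a table that the authors provided for all 6 arrays. The sorted values were equal on 5 arrays and nearly equal on TUSC3 replicate 1, so a shift of most genes in 1 direction cannot be seen. The same sources state no array model, genome build or probe positions. Groups came from the sample labels.

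TUSC3 was compared with EV in R 4.3.3 with limma 3.58.1 (functions lmFit and eBayes, two-sided, no filter) on the values as deposited, over all 25088 probe sets, with Benjamini-Hochberg adjustment and a threshold of 0.05. Of these probe sets 23752 had 1 symbol, 0 had several and 1336 are unnamed here. Precision is limited by the number of arrays. The procedure was tested on simulated data. The alternatives were renormalization, array weights, another variance prior, filters, the replicate number as a block, and leaving out each array.

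The members and lists were chosen with earlier results of these data known. Every member is named. All 6 values are printed for members with an unadjusted p under 0.05 or a difference of at least 0.25, for DHDDS with NUS1, ALG10 with ALG10B, PMM1 and ALG13 with ALG14, and for other pathway genes with an unadjusted p under 0.05.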

Additional observations from a re-analysis of the deposited data

How the results depend on the processing

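None of the 26 genes passed the threshold under any of the 13 alternatives, with adjusted p from 0.345 to 1.00 (limma), and the separate list of pathway genes likewise gave 0. The TUSC3 difference stayed past the threshold. The trended and robust variance prior gave 2 probe sets past the threshold in place of 1. Without EV replicate 2, 1 gene had an unadjusted p under 0.05 and 8 had groups that did not overlap, in place of 2 and 4; leaving out each array in turn gave 1 to 2 and 4 to 8. Groups of 3 and 2 arrays separate more often, and without EV replicate 2 the 8 genes were 30.8% beside 22.5% of all probe sets. NUS1 kept an unadjusted p under 0.05 in 13 of 13 alternatives, with differences from -0.48 to -0.35, and ALG10B kept it in 10. All alternatives reuse the same arrays, so these counts are not repeated evidence. PMM1 and DOLPP1, which were above 0.05 in the fit as reported, were under it in 2 and 1 alternatives. Of 338 gene values under the alternatives, 308 kept their direction and 30, from 17 genes, changed sign without passing. The filters, the variance prior and the replicate block leave each difference as it was, so no sign could change under them. Signs changed only with array weights or with an array left out. With the replicate block, 0 of the 26 genes passed and the smallest adjusted p was 0.785; deviations from the group means correlated at -0.014, 0.040 and -0.013 between arrays of equal number, which gave no sign of pairing.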
